A study of Triticum turgidum subsp. durum with 12 samples.

Results

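Leaves of wild-type (WT) durum wheat and of its *phyB*-null mutant grown in short days (SD) were compared in 8 of the 12 RNA-seq libraries of the study, 4 for each genotype. The comparison is made over the high confidence gene models of the wheat annotation, whose identifiers start with TraesCS and do not end in LC, and these make up 48846 of the 72120 features in the count table. The letter before 01G in an identifier gives the A or B subgenome. WT plants were the variety Kronos, a tetraploid with the photoperiod insensitive allele *Ppd-A1a* and the spring allele *Vrn-A1*. The *phyB*-null plants carry the same alleles. They combine EMS-induced mutations that remove the function of both homeologs of *PHYB*, and were backcrossed to Kronos 2 times. Both genotypes were kept with 8 h of light at 20 °C and 16 h of dark at 18 °C, and leaf tissue was taken 4 h after dawn when the plants were 8 weeks old. The labels name the youngest fully expanded leaf and, in another field, the third leaf. At that age the WT apex had reached stage 3 of the Waddington scale of spike development, whereas the *phyB*-null apex was still vegetative, at stage 1. The loss of *PHYB*, the younger stage of the mutant plant and any EMS mutation left in its background cannot be told apart in these libraries.

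Phytochrome B is a photoreceptor that is switched to its active form by red light and back by far-red light. In *Arabidopsis* the active form enters the nucleus, where it binds phytochrome interacting factors (PIF), a group of bHLH transcription factors that promote elongation, and leads to their degradation. It also restrains COP1, an E3 ubiquitin ligase that removes light-promoting factors such as HY5. Plants without phytochrome B grow much as plants in shade do, with changes in auxin, gibberellin and brassinosteroid genes. In wheat the gene is known for its part in flowering time. In a tetraploid many genes have an A and a B copy (homeologs), so their response can be seen on 2 copies.

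Library totals were 39605997 to 45698270 counts in WT and 37365465 to 45967798 in *phyB*-null, and high confidence models took 94.5% to 95.1% of them. The root mean square log2 difference between libraries was 0.308 to 0.469 within WT and 0.832 to 1.16 between genotypes. *phyB*-null replicate 2 stood apart from its group, at 0.802 from *phyB*-null replicate 1, while the other distances within *phyB*-null were 0.377 to 0.635. As a check of the tissue, the 4 models described as small chain of Rubisco, the carbon-fixing enzyme of leaf cells, were summed. They reached 8610 to 18105 TPM (a transcript level scaled for gene length and library size) over the libraries. A homeolog pair described as chlorophyll a-b binding protein, also of leaf cells, had WT means of 249 and 266 TPM. Its *phyB*-null means were lower, at 42.1 and 49.7 TPM, and neither copy passed the test used below. The 16 floral organ MADS genes of the study's table summed to 13.2 to 22.2 TPM, with *TaPI-A1* (8.67 TPM as the WT mean and 12.2 TPM as the *phyB*-null mean) and *TaPI-B1* (4.46 and 4.49 TPM) the highest, and the 12 of them in the *SEP1*, *AG* and *STK* clades to 1.90 to 2.85 TPM. No identifier is paired with *PHYB* in the tables read here, so the labels could not be checked by the mutated gene itself.

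Transcript levels of 7384 high confidence models differed between the genotypes, 15.1% of those tested (edgeR's quasi-likelihood test, Benjamini-Hochberg adjusted p below 0.01, called below). Of these, 3655 were higher in *phyB*-null, which is 7.48% of the models tested, and 3729 were lower, which is 7.63%. Changes are given as log2 of *phyB*-null over WT, so a positive value is a higher level in the mutant. The median change was 0.95 among models called higher and -1.29 among those called lower. Lower calls were the majority at moderate folds, with 1717 higher and 2359 lower at 2-fold or more and 668 higher and 1070 lower at 4-fold or more. At 32-fold or more this was turned, with 139 higher and 102 lower. Groups of 4 TPM values did not overlap for 6810 of the called models (92.2%), beside 26.9% of all models tested. Leaving out WT replicate 2 reduced the number called to 4849 and leaving out *phyB*-null replicate 3 reduced it to 4573, while without *phyB*-null replicate 2 it was 7323.

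The direction depended on the transcript level. Among models with a mean of 0.1 to 1 TPM over the 8 libraries, 396 were called higher and 752 lower, and the median size of the change was 2.35. Between 1 and 10 TPM the numbers were 1416 and 1767. Between 10 and 100 TPM they were 1591 and 1033, and at 100 TPM or more 222 and 124, with a median size of 0.83. Weakly transcribed models were thus called lower more often and strongly transcribed models higher more often, and the share of called models that were higher went from 34.5% at 0.1 to 1 TPM to 64.2% at 100 TPM or more. The share of models called at all went up with the level, from 0.992% below 0.1 TPM to 29.8% at 100 TPM or more. By their choice, the models called higher took more of the transcripts in the mutant. They summed to 99153 to 104149 TPM in WT and to 171468 to 200535 TPM in *phyB*-null, and the models called lower summed to 82090 to 99443 TPM in WT and 35099 to 47059 TPM in *phyB*-null.

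**Figure D1:**
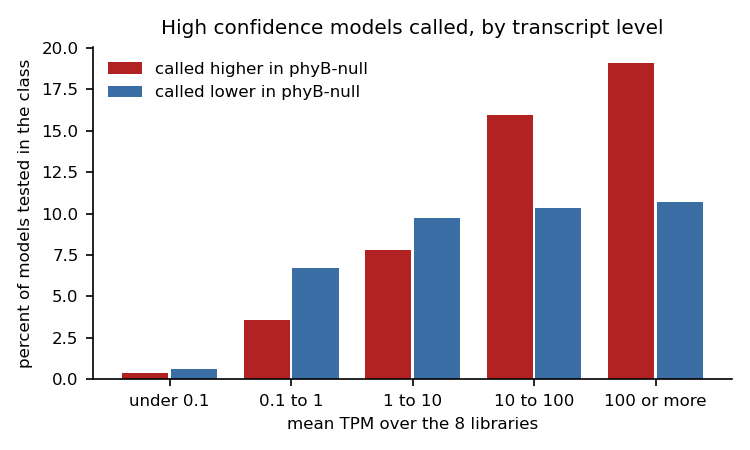
Percent of the high confidence models tested that were called higher (red) or lower (blue) in *phyB*-null, in 5 classes of mean TPM over the 8 libraries. Lower calls are the more frequent below 10 TPM (1416 higher and 1767 lower at 1 to 10 TPM), and higher calls above it (1591 and 1033 at 10 to 100 TPM).

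The A and B subgenomes were affected to the same extent. On A chromosomes 3641 of 23995 models were called and on B chromosomes 3639 of 24012, 15.2% of each. The direction was less even, since 1904 of the called A models were higher in *phyB*-null (52.3%) and 1704 of the called B models (46.8%), a difference of 5.5 percentage points. Among called models with a change of at least 2-fold, 44.1% of 1958 A models and 40.4% of 2044 B models were higher. In each of the 7 chromosome numbers the A chromosome had the larger share of higher calls. It was 55.2% on 5A and 45.5% on 5B, the widest difference, and 51.0% on 3A and 47.8% on 3B, the narrowest. By level, the A share was the larger at 1 to 10 TPM (47.9% and 41.2%), at 10 to 100 TPM (63.0% and 58.5%) and at 100 TPM or more (66.5% and 60.9%), while at 0.1 to 1 TPM it was 33.8% on A and 34.6% on B. Genes are not independent replicates, so this difference in shares was not tested. The difference was 4.8 to 6.9 percentage points under every alternative to the test, including each library left out in turn.

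**Figure D2:**
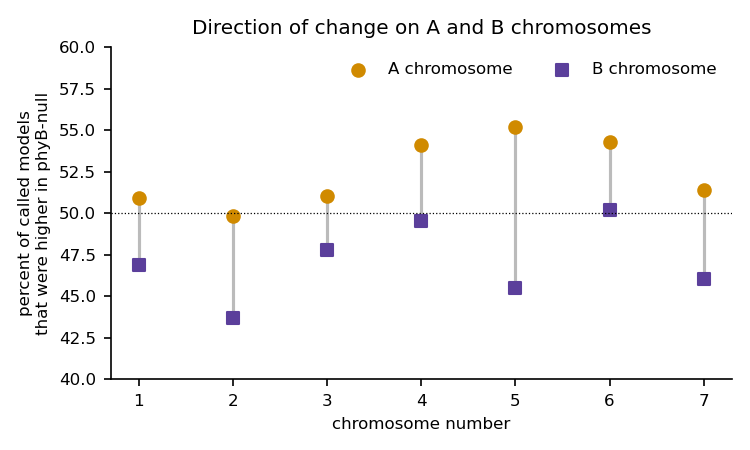
Percent of called models that were higher in *phyB*-null, on the A (circles) and B (squares) chromosome of each of the 7 chromosome numbers. The y axis runs from 40 to 60, and the A chromosome lies above its B partner in all 7, from 55.2% and 45.5% for chromosome 5 to 51.0% and 47.8% for chromosome 3.

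The share of all high confidence counts that came from the A subgenome could be tested over libraries. It was 50.71%, 50.95%, 51.13% and 51.34% in WT and 51.01%, 51.55%, 51.22% and 50.97% in *phyB*-null. The groups overlapped, and the means of 51.03% ± 0.265 and 51.19% ± 0.263 (SD, n = 4) differed by 0.153 percentage points (exact permutation test over 70 splits, two-sided, p = 0.429). The chromosomes held similar shares of called models, from 14.1% on 1A to 16.2% on 2A and 2B. Of the 839 models without a chromosome 104 were called (12.4%).

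A small number of models went from no count at all to a clear level or the reverse. With no count in any WT library and at least 3 counts in every *phyB*-null library there were 49 models, 23 on A and 25 on B chromosomes, and the reverse was found for 40 models, 17 on A and 23 on B. These numbers rest on few counts. With at least 10 counts required in every library of the other genotype 25 models remained in all, and 140 met the rule without *phyB*-null replicate 1. Among the models silent in WT was TraesCS2B01G551700, described as lumazine synthase, an enzyme of riboflavin synthesis. It was at 8.38, 7.33, 10.4 and 12.5 TPM in *phyB*-null, at least 177-fold higher than a floor of 3 counts over the 4 WT libraries. The other end held the florigens *FT-A1* and *FT-B1*, both without a count in *phyB*-null. Some further models were picked from this set after their values were seen, because they belong to hormone pathways. TraesCS4B01G058200, for an ACC synthase of the ethylene pathway, was higher in the mutant by at least 74.3-fold. TraesCS3B01G353200, for the auxin-conjugating enzyme GH3.3, was higher by at least 62.3-fold, and the *SAUR*-like gene TraesCS5B01G344700 by at least 36.3-fold. Outside this set, another ACC synthase pair, TraesCS2A01G396400 and TraesCS2B01G414800, was lower in the mutant (log2 changes of -0.95 and -2.3).

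Of the 2 phytochrome interacting factor genes that the study's photoperiod table names, 1 was higher and 1 lower in *phyB*-null. The study named the genes of this table with these libraries in hand, so counts of named genes here and below are descriptions, to be read beside the 7.48% of all high confidence models called higher and the 7.63% called lower. The bHLH gene *PIF3* (TraesCS1B01G100400), which encodes a phytochrome interacting factor, was at 0.107, 0.203, 0.149 and 0.357 TPM in WT and at 65.8, 44.5, 53.6 and 60.2 TPM in *phyB*-null. Its A copy by protein hit, TraesCS1A01G083000, was at 0.582 to 1.14 TPM in WT and 49.0 to 70.5 TPM in *phyB*-null. The copies rose by 8.17 (standard error 0.28) and 6.26 (standard error 0.21) to nearly equal levels, from WT levels that were lower for the B copy. The other named gene, *PIL1*-like (TraesCS5A01G420200), fell by 0.63, from 38.7 ± 3.32 to 23.1 ± 1.85 TPM.

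Genes for bZIP factors with a protein hit to CPRF2, which in parsley binds the light-responsive promoter of the chalcone synthase gene, were lower in *phyB*-null. TraesCS5B01G059200 was at 923, 697, 614 and 707 TPM in WT and at 4.34, 2.88, 5.10 and 7.42 TPM in *phyB*-null. This was the largest loss of transcript level among the bZIP genes, at -7.13 (standard error 0.27). Its A homeolog TraesCS5A01G057500 went from 288 to 393 TPM in WT to 3.16 to 9.24 TPM in *phyB*-null (-5.79). The more weakly transcribed CPRF2-like genes TraesCS5A01G440400 and TraesCS5B01G444100 fell by 0.92 and 1.58. The HY5-like genes moved in the other direction. HY5 is the bZIP factor that promotes light-grown development in *Arabidopsis*. TraesCS6A01G175800 was at 29.9, 32.0, 24.0 and 28.1 TPM in WT and at 215, 137, 145 and 185 TPM in *phyB*-null, a rise of 2.68 (standard error 0.13). Its B counterpart TraesCS6B01G209600 rose by 2.61, from 31.4 ± 2.18 to 180 ± 34.1 TPM, and TraesCS7A01G373800 by 3.29, from 0.568 to 5.26 TPM.

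Transcripts for COP1 (TraesCS6A01G326100) were at 16.6 to 19.5 TPM in WT and 34.5 to 37.8 TPM in *phyB*-null (1.13), and those of a phytochrome A gene (TraesCS4A01G262900) at 2.05 to 2.44 and 4.33 to 5.89 TPM (1.35). The homeobox-leucine zipper genes with a hit to HOX17, related to the shade-responsive *ATHB2* of *Arabidopsis*, were among the clearest changes. TraesCS2A01G415900 was at 2.95, 2.51, 2.12 and 3.39 TPM in WT and 31.8, 38.4, 38.1 and 43.3 TPM in *phyB*-null, and *ATHB2-B* (TraesCS2B01G434900) rose from 1.13 to 16.5 TPM, so that the copies changed alike, by 3.90 and 3.98. Early light-induced proteins bind pigments in the chloroplast membrane under light stress. Their 5 described genes were all higher in *phyB*-null, from TraesCS2A01G523700 (73.8 ± 11.9 to 317 ± 153 TPM, 2.17) to TraesCS1A01G314900 (0.130 to 11.0 TPM, 6.51). TraesCS1A01G314500 was at 4.95, 8.79, 4.29 and 6.34 TPM in WT and at 106, 64.3, 97.4 and 105 TPM in *phyB*-null, with *phyB*-null replicate 2 the lowest. Genes for chalcone synthase, the entry enzyme of flavonoid synthesis, were also higher. TraesCS2B01G038700 rose from 2.39 to 47.5 TPM (4.43) and TraesCS2A01G035300 from 0.508 to 8.96 TPM (4.24), and the MYB gene TraesCS4B01G323300, with a hit to the maize anthocyanin regulator C1, from 0.365 to 6.29 TPM (4.21). The descriptions of the bZIP, HOX17, early light-induced and chalcone synthase genes are from tables that the study drew up on these libraries, so their number says nothing of how often such genes changed.

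**Figure D3:**
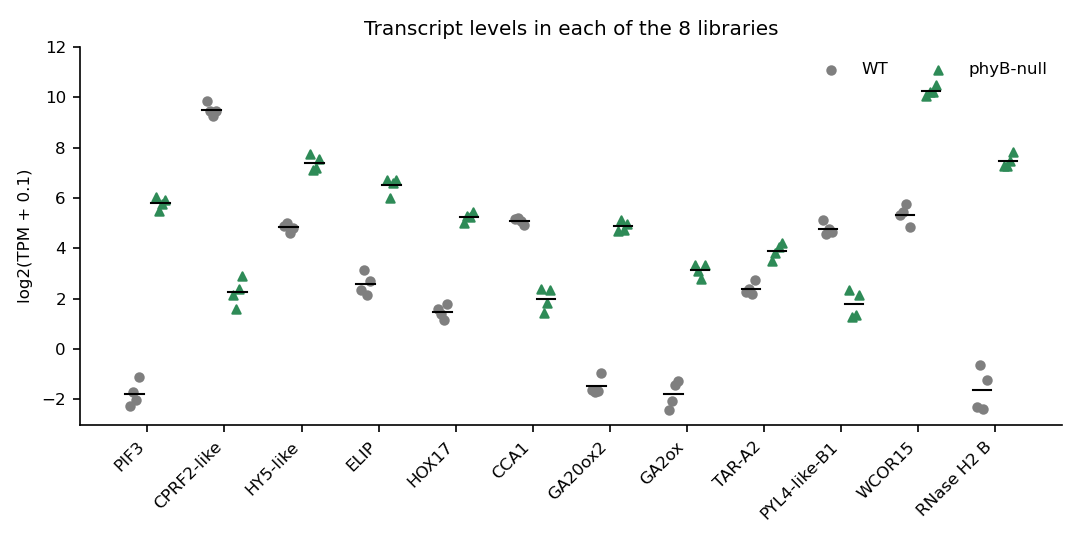
Transcript level as log2(TPM + 0.1) in each library for 12 genes of the text, WT as grey circles and *phyB*-null as green triangles, with black lines for the means. No gene has overlapping groups, from *TAR-A2* (4.46 to 6.61 TPM in WT and 11.2 to 18.4 TPM in *phyB*-null) to RNase H2 subunit B (at most 0.545 TPM and at least 154 TPM).

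Of 14 clock and clock-related genes that the photoperiod table names, 9 were lower in *phyB*-null (7.63% of all high confidence models were), with a median change of -0.75 beside 0.03 over all high confidence models with a mean of at least 1 TPM. *CCA1* (TraesCS7B01G188000), a MYB-related repressor that peaks in the morning, was at 35.6, 36.9, 33.5 and 30.1 TPM in WT and at 5.14, 2.60, 3.41 and 4.93 TPM in *phyB*-null, a change of -2.99 (standard error 0.16). Its A counterpart TraesCS7A01G299400 went from 83.3 to 103 TPM in WT to 8.32 to 17.7 TPM in *phyB*-null (-2.76). The cycling Dof factor genes repress *CONSTANS* in *Arabidopsis*. *CDF1c-A* and *CDF1c-B* fell by 1.84 and 1.80, the former from 28.9 ± 2.29 to 7.60 ± 2.15 TPM and the latter from between 26.4 and 33.9 TPM to between 4.70 and 10.8 TPM, and TraesCS4B01G286400 (*CDF1d-B*, *CDF1e-B*) by 1.60. *PRR95* fell by 0.73 and *TZP-B* by 0.70. *PPD-B1* and *PPD-A1* fell by 4.58 and 0.77. The call of *PRR95* was lost without WT replicate 1 or *phyB*-null replicate 3, and that of *PPD-A1* also without WT replicate 2 or WT replicate 4. The last of the 9 is the *LHY* gene TraesCS6B01G288500, at 0.747 TPM in WT (-1.51), and its call was lost whichever library was left out. Genes that the test did not call were *ELF3-A* (0.15) and *ELF3-B* (0.25), *GIGANTEA-A* (0.40, from 23.4 to 28.4 TPM) and *GIGANTEA-B* (0.33), and TraesCS4A01G017700 (*CDF1d-A*, *CDF1e-A*) at -0.61. *GIGANTEA-A* was called without *phyB*-null replicate 1, and TraesCS4A01G017700 without WT replicate 3 or *phyB*-null replicate 4. All libraries were taken at a single time of day, so a shift in phase and a change in level cannot be told apart. Without WT replicate 1 or *phyB*-null replicate 3, 6 of the 14 were called lower.

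Several genes on both sides of gibberellin metabolism were higher in the mutant. GA 20-oxidases make the precursors of active gibberellins, and GA 2-oxidases inactivate them. Of 7 named genes 5 were higher in *phyB*-null, 2 of the 4 GA 20-oxidases and all 3 GA 2-oxidases, with a median change of 6.13. Of all high confidence models 7.48% were called higher. *GA20ox2* (TraesCS3B01G439900), with a hit to the rice semi-dwarf gene *SD1*, was at 0.227, 0.203, 0.217 and 0.417 TPM in WT and at 25.8, 35.2, 26.2 and 31.6 TPM in *phyB*-null (6.90, standard error 0.27). The corresponding A model TraesCS3A01G406200 rose from 0.246 to 10.1 TPM (5.48). The homeologs of *GA20ox4* differed. *GA20ox-B4* rose by 5.05, from 0.0825 ± 0.108 TPM to 2.65 ± 1.22 TPM, while *GA20ox-A4* was already at 0.831 to 3.96 TPM in WT and at 0.863 to 4.36 TPM in *phyB*-null, with overlapping groups and no call (0.45). *GA20ox1* had means of 19.5 TPM (WT) and 19.3 TPM (*phyB*-null) and was not called (0.09).

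Among the inactivating enzymes, *GA2ox6* (TraesCS2A01G379000) had 2 counts over all WT libraries and 7.16 to 10.3 TPM in *phyB*-null, a count ratio of 757 (95% exact counting interval 209 to 6253). Its B homeolog TraesCS2B01G396000 had a single WT count and 1.93 to 2.68 TPM in *phyB*-null (count ratio 541, interval 96.7 to 21408). *GA2ox-A11*, without a WT count, was higher in the mutant by at least 92.4-fold, and *GA2ox-B11* had 3 (count ratio 80.4, interval 27.2 to 393). The GA 2-oxidase genes TraesCS1A01G334400 and TraesCS1B01G347600 rose by 4.49 and 5.50, to 6.39 ± 0.675 and 8.87 ± 1.56 TPM. The GA 2-oxidase gene TraesCS3A01G133400 fell instead, from 0.540 to 0.0462 TPM (-3.43). This call needed WT replicate 2, WT replicate 3 and *phyB*-null replicate 3, and leaving out any of them ended it.

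Of the 9 named auxin genes 5 were higher in *phyB*-null, beside 7.48% of all high confidence models, and the median change was 1.22. The number was 3 without WT replicate 1, with the *phyC*-null libraries added to the fit (12 libraries) and with limma on log2(TPM + 0.1). The tryptophan aminotransferase genes, which start the main route of auxin synthesis, rose together. *TAR-A2* (TraesCS3A01G093000) was at 4.74, 5.19, 4.46 and 6.61 TPM in WT and at 11.2, 14.0, 16.6 and 18.4 TPM in *phyB*-null (1.63), and *TAR-B2* went from 5.68 to 12.7 TPM (1.26). Of the Aux/IAA genes, whose products repress auxin responses, *IAA16* rose by 1.22 (5.50 ± 0.206 to 11.8 ± 0.506 TPM), *IAA-A12* by 2.85 and *IAA-B12* by 2.22. The call of *IAA-A12* was lost without WT replicate 1 or WT replicate 3 and that of *IAA-B12* without WT replicate 1. *IAA15*, *IAA17*, *IAA19* and *PIN3*-like were not called, at 0.24, 0.59, 0.18 and 0.04, though *IAA17* was called without *phyB*-null replicate 1. Beyond the named genes, the *SAUR*-like homeologs TraesCS2A01G186300 and TraesCS2B01G220800 rose by 2.12 and 2.29, to 48.9 and 16.7 TPM, the former not called in the fit of 12 libraries. A gene described as an auxin canalization protein, TraesCS1A01G213700, had 3 WT counts and 8.93 to 10.8 TPM in *phyB*-null (count ratio 655, interval 224 to 3180). Its B copy TraesCS1B01G227300 rose to 1.80 TPM (5.63). Another gene of that description, TraesCS1A01G220700, had means of 0.300 TPM (WT) and 0.165 TPM (*phyB*-null) and was not called (-0.77, edgeR adjusted p = 0.416).

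All 4 brassinosteroid genes of the table were higher in *phyB*-null. *BZR1-like-A*, for a transcription factor at the end of the brassinosteroid pathway, was at 6.49, 6.48, 5.19 and 5.59 TPM in WT and at 20.9, 21.3, 21.2 and 23.5 TPM in *phyB*-null (1.99), and *BZR1-like-B* rose by 1.58. *BIM-A2* and *BIM-B2* encode bHLH partners of this factor and rose by 2.15 and 0.78, the latter not called by limma. The 3 named genes linked to cell expansion were higher as well, but only 1 of them in the fit of 12 libraries and with limma on log2(TPM + 1). The *XTH*-like gene TraesCSU01G175000, for a cell wall enzyme that cuts and rejoins xyloglucan, rose by 3.15, from 3.33 ± 1.97 to 26.6 ± 17.9 TPM, and *phyB*-null replicate 2, at 51.8 TPM, lay above the rest of the mutant libraries, at 12.4 to 27.2 TPM. It lost its call in the fit of 12 libraries and in both limma fits. *LONGIFOLIA-1*-like and *LONGIFOLIA-2*-like, named for *Arabidopsis* genes that lengthen leaves, rose by 1.34 and 4.31, the latter from 5 counts over the WT libraries to 0.156 TPM. The former was not called in the fit of 12 libraries and the latter not with limma on log2(TPM + 1). The bHLH gene TraesCS6B01G385800, with a hit to IBH1, which restrains elongation in *Arabidopsis* and rice, was higher as well, from at most 0.104 TPM in WT to 3.33, 23.1, 14.2 and 12.5 TPM (8.21).

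Abscisic acid receptor genes were lower. *PYL4-like-B1* (TraesCS4B01G189800) was at 34.5, 23.4, 27.2 and 25.3 TPM in WT and at 4.95, 2.31, 2.47 and 4.38 TPM in *phyB*-null. The 3 named genes, *PYL4-like-A1*, *PYL4-like-B1* and *PYL4-like2* (TraesCS2B01G105300), changed by -2.70, -2.88 and -2.0, and TraesCS2A01G089400, the A homeolog of the last, by -1.48. Of 5 named cold-responsive genes 3 were higher, beside 7.48% of all high confidence models, with both genotypes kept at 20 °C in the day. *WCOR15* (TraesCS2A01G427200) was at 40.0, 43.3, 53.8 and 28.4 TPM in WT and at 1073, 1194, 1200 and 1453 TPM in *phyB*-null (5.02, standard error 0.19). The neighbouring model TraesCS2A01G427100 rose by 4.15, and the B genome genes *WCOR14* and *WCS19a*, which also have consecutive identifiers, by 4.21 and 6.01. For *WCOR14* the mutant libraries were uneven, at 105 TPM in replicate 1 and 225 to 385 TPM in the others. *WCOR413* (0.92, adjusted p = 0.0245 by edgeR's quasi-likelihood test) and *ICE-41* (0.27) were not called, though *WCOR413* was called without *phyB*-null replicate 1. A CRT-binding factor gene, TraesCS1B01G335100, whose class of proteins switches on cold-responsive genes, rose from 0.771 ± 0.340 to 4.81 ± 1.10 TPM (2.77). A gene described as a low temperature and salt responsive protein, TraesCS1A01G082500, fell instead, from 37.2 to 16.5 TPM (-1.08). Its B copy TraesCS1B01G100100 was not called (0.11).

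The flowering genes of the table split by member. Of 14 *FT*-like genes, 6 were higher and 7 lower in *phyB*-null. One of the 6, TraesCS2A01G485000, lost its call whichever library was left out, and limma on log2(TPM + 1) called 3 lower. The 7 lower ones are *FT1*, *FT2* and *FT4* on both genomes and *FT-B3*. Neither *FT-A4* nor *FT-B4* had a count in the mutant, where they were at least 58.8-fold and 19.8-fold lower. Members that rose included *FT-A12* (0.161 to 10.8 TPM, 6.10) and *FT-B12* (0.0873 to 5.02 TPM, 5.81), *FT-A9* (0.20 to 8.02 TPM, 5.37) and TraesCS3B01G015800 (0.183 to 24.2 TPM, 7.04). TraesCS3B01G015600, which stands near it, had 2 WT counts and 7.57 to 9.34 TPM in *phyB*-null (count ratio 701, interval 194 to 5791). *FT-B10* was not called (0.24). In the FLC clade of MADS-box genes 5 of 11 were higher and 2 lower. *TaFLC-B2* rose from 1.62 ± 0.407 to 8.87 ± 2.34 TPM (2.56) and *TaFLC-B4* from 2.71 to 17.2 TPM (2.81), while *TaFLC-A1* and *TaFLC-B1* fell by 4.06 and 3.51. *TaFLC-A1* was at 13.8 TPM in WT replicate 1 and no higher than 3.67 TPM in the rest of WT, and *TaFLC-B1* at 28.7 TPM and no higher than 7.43 TPM. With limma on log2(TPM + 1) neither was called and 3 of the 11 were higher.

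In the SOC1 clade 2 of 7 genes rose, the homeologs *TaSOC1-A2* (2.63) and *TaSOC1-B2* (2.32), from 2.29 and 4.20 TPM to 13.0 and 19.3 TPM. In the SVP clade 2 of 6 rose, again as homeologs, *TaSVP-A2* by 0.62 and *TaSVP-B2* by 0.67. With limma on log2(TPM + 1) *TaSVP-A2* was not called, and on log2(TPM + 0.1) neither was. Of 16 floral organ MADS genes only *TaSTK-A2* was called, from 0.0796 to 1.12 TPM (3.93). These 16 genes summed to 13.2 to 17.8 TPM in WT and 16.3 to 22.2 TPM in *phyB*-null. *FPF-like-A1* (TraesCS2A01G114600), for a homologue of flowering promoting factor 1, was at 14.3, 33.3, 33.1 and 18.5 TPM in WT and at 302, 196, 209 and 348 TPM in *phyB*-null (3.51), and *FPF-like-B1* rose from 0.272 to 26.3 TPM (6.68). *FPF-like-2* was called as well (1.06) but its groups overlapped, *FPF-like-3* was not called, and *FPF-like-4*, at -1.37, was called only without WT replicate 1. The call of *FPF-like-2* was lost on leaving out any WT library or *phyB*-null replicate 3. The 3 tillering genes did not pass the test, with *GRASSY TILLERS1* at -0.77 (edgeR adjusted p = 0.0273), *SPL14-like-A* at 0.02 and *SPL14-like-B* at -0.35. *GRASSY TILLERS1* was called without *phyB*-null replicate 4.

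Transcription factor genes were called more often than the average model and mostly lower. Of 1765 high confidence models to which the photoperiod table gives a family, 370 were called (21.0%), 130 higher and 240 lower. At a mean of at least 1 TPM, 306 of 1012 family members were called (30.2%), beside 21.0% of the 29292 high confidence models at that level. Of the family members 19.7% were lower and 10.6% higher, and of all these models 9.98% and 11.0%. The WRKY and NAC families had the most members called lower. WRKY factors are best known from defence and senescence, and of 119 members 36 were lower and 3 higher, with a median change of -1.31. NAC factors include regulators of senescence and of nutrient transfer in wheat, and of 147 members 32 were lower and 3 higher, with a median of -0.58. The WRKY genes called lower had changes of -6.71 to -0.68, and 35 of 36 were at least 2-fold lower. They lay on both subgenomes, 16 on A and 20 on B. The WT means of these 36 genes ran from 0.108 to 25.1 TPM. No group overlapped, which also held for 92.2% of all called models. The largest WRKY change was that of TraesCS7B01G249700, at 0.628, 2.39, 5.30 and 0.549 TPM in WT and with 2 counts over all *phyB*-null libraries (count ratio 136, interval 37.4 to 1132). WRKY calls depended on single libraries, as 18 were lower without WT replicate 3 or without *phyB*-null replicate 3, 20 without WT replicate 2 and 23 without *phyB*-null replicate 4. NAC calls fell to 20 lower without *phyB*-null replicate 3.

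**Figure D4:**
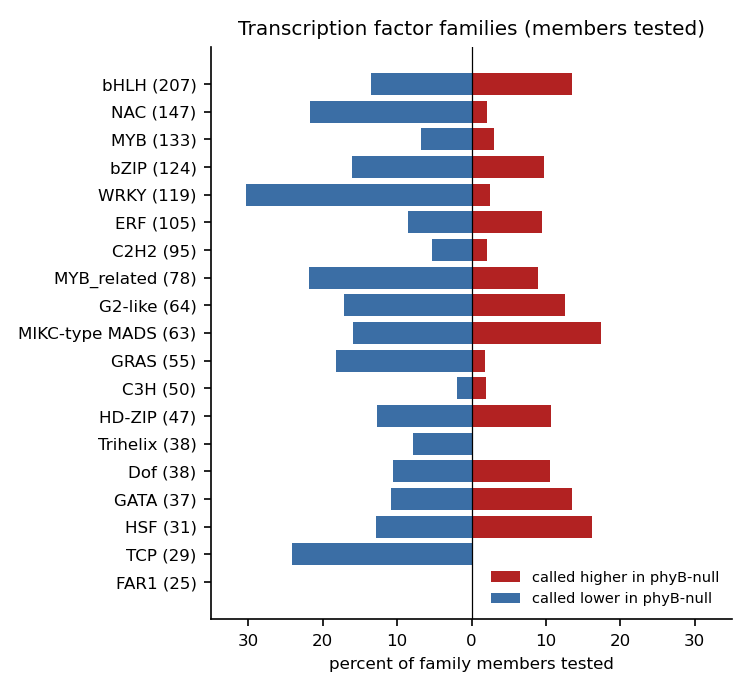
Percent of the tested members of each transcription factor family with at least 25 members that were called higher (red, to the right) or lower (blue, to the left) in *phyB*-null, with the number of members in brackets. WRKY (36 of 119) has the longest bar on the lower side, ahead of TCP (7 of 29), and NAC (32 of 147) is close to MYB-related (17 of 78).

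Other families leaned the same way with smaller numbers, to be read beside 7.48% of all high confidence models called higher and 7.63% called lower. MYB-related genes were 17 lower and 7 higher of 78, GRAS genes 10 lower and 1 higher of 55, and TCP genes 7 lower of 29. The largest fall of a MYB-related gene was that of TraesCS1B01G449400, described as RADIALIS-like, at 20.4, 22.1, 18.3 and 15.3 TPM in WT and 0.344 to 1.06 TPM in *phyB*-null (-4.89). Among TCP genes the largest value belonged to TraesCS5A01G001900, described as teosinte branched 1, a repressor of branching in maize. It was at 0 TPM in WT replicate 1, at 4.45 to 5.21 TPM in the other WT libraries and at 0 TPM in every *phyB*-null library, so its groups overlapped and the WT libraries themselves were split. Leaving out WT replicate 2 or 3 or *phyB*-null replicate 3 or 4 ended its call. The bHLH family, which includes the PIFs, had 28 higher and 28 lower of 207, and ERF genes 10 higher and 9 lower of 105. Of bHLH members 27.1% were called. Of ERF members 18.1% were, near the 15.1% of all high confidence models. bZIP genes were 12 higher and 20 lower of 124. The LBD family had 3 higher of 15, led by TraesCS2B01G212400 with a hit to LBD37 (0.0388 to 2.03 TPM, 5.71).

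Of other families only single members are given. The largest rise in the heat shock factor family was that of TraesCS3B01G314600 (0.306 to 2.97 TPM, 3.38) and in the GATA family that of TraesCS7A01G363100, which went from 40.4 to 53.3 TPM in WT to 88.1 to 148 TPM in *phyB*-null (1.40). In the RAV family TraesCS1B01G392000 had 2 WT counts and 1.65 to 3.20 TPM in *phyB*-null (count ratio 241, interval 66.4 to 1998). Among CO-like genes TraesCS6A01G150900 rose by 1.64 and TraesCS6B01G248400 fell by 1.05, a call lost in the fit of 12 libraries. The nuclear factor Y subunit B gene TraesCS2A01G359400 fell by 1.70, from 11.6 ± 1.77 to 3.29 ± 0.347 TPM, and the ERF gene TraesCS2B01G436300 by 2.05. The HD-ZIP gene TraesCS5B01G231300, with a hit to HOX11, fell by 1.77, in contrast to the HOX17 genes.

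Of the 7384 called models, 1971 have a description and could be ranked here. Those with the largest folds and at least 5 TPM were led by a homeologous pair for subunit B of ribonuclease H2. This enzyme removes ribonucleotides from DNA. TraesCS2A01G327400 was at 0.103, 0.545, 0.0893 and 0.330 TPM in WT and at 154, 155, 177 and 228 TPM in *phyB*-null (9.49, standard error 0.34). TraesCS2B01G354600 was at no more than 0.172 TPM in WT and at 40.8 to 61.5 TPM in *phyB*-null (9.10). The model next to each by identifier is described as an F-box protein, and these rose too, TraesCS2A01G327500 by 5.40 and TraesCS2B01G354500 by 8.95. The defensin gene TraesCS2B01G396100, whose identifier follows that of the GA 2-oxidase gene TraesCS2B01G396000, had 3 WT counts and 29.3 to 42.1 TPM in *phyB*-null (count ratio 455, interval 155 to 2208). In the other direction stood a nuclear pore complex protein gene, TraesCS7A01G158600, at 27.4, 19.7, 26.2 and 11.5 TPM in WT and at 0.0227 to 0.0441 TPM in *phyB*-null (-9.23). Genes for the sugar transporter SWEET3a fell on both genomes. TraesCS1A01G129600 was at 8.56 to 15.7 TPM in WT and at most 0.10 TPM in *phyB*-null (-7.78), and TraesCS1B01G147200 had 6.84 to 15.8 TPM in WT and 2 counts in *phyB*-null (count ratio of WT to *phyB*-null 504, interval 139 to 4168). Others that nearly vanished were a disease resistance gene with a hit to RPM1, TraesCSU01G007900 (10.3 ± 1.73 to 0.0831 ± 0.0544 TPM, -6.87), a lipid-binding protein gene, TraesCS7B01G190500 (7.02 to 0.0372 TPM, -7.31), and the bHLH gene TraesCS3B01G549800 (-6.97), whose WT libraries ranged from 1.71 to 21.1 TPM.

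Among the 10 described models in each direction with the largest differences in TPM, the fold ran from 1.85 (a Rpr4901.2 gene) to 140 (CPRF2-like TraesCS5B01G059200). The largest gain among described models was that of TraesCS2B01G048200, with a hit to CP12, a small protein that ties up Calvin cycle enzymes in the dark. It was at 2583, 2463, 2467 and 2281 TPM in WT and at 6118, 5027, 5432 and 6483 TPM in *phyB*-null (1.34, standard error 0.11). Ferredoxin genes, for the electron carrier after photosystem I, rose on both genomes. TraesCS7B01G226200 went from 355 to 483 TPM in WT to 1069 to 1284 TPM in *phyB*-null (1.64), and TraesCS7A01G325500 from 254 ± 54.6 to 889 ± 87.0 TPM (1.92). Lipid transfer protein genes TraesCS1B01G189400 and TraesCS1A01G175200 rose by 1.76 and 1.30, to 942 and 836 TPM, a post-illumination chlorophyll fluorescence gene, TraesCS7A01G386300, by 1.71 to 651 TPM, and the proline-rich homeologs TraesCS1B01G308500 and TraesCS1A01G298800 by 1.78 and 1.06. TraesCS3B01G451800, described as a P-loop protein, met the rule as well (1.46), but its groups overlapped and *phyB*-null replicate 2 was at 227 TPM beside 543 to 959 TPM in the other mutant libraries. Its call was lost on leaving out any library other than WT replicate 2 and *phyB*-null replicate 2.

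Losses in absolute level were led by the T7H20-70 protein gene TraesCS1B01G290000, which fell by 2.42 (908 to 157 TPM), and the B copy of the CPRF2-like pair. The A copy of the former, TraesCS1A01G281000, fell by 1.90 (361 to 89.7 TPM). A polyubiquitin gene, TraesCS7A01G453500, was at 877, 807, 701 and 669 TPM in WT and at 299, 276, 254 and 290 TPM in *phyB*-null (-1.33). The amine oxidase genes, with a hit to polyamine oxidase 2, which breaks down polyamines, fell by 3.27 (TraesCS2B01G490100, 358 ± 80.0 to 34.9 ± 12.6 TPM) and 1.92 (TraesCS2A01G467300, 99.6 to 24.5 TPM). Further abundant transcripts that fell were those of a Clp protease adapter gene (TraesCS2A01G022700, 485 to 171 TPM, -1.41), the LTI6A-like gene TraesCS2B01G177100 (417 to 131 TPM, -1.57) and the lipid-transfer type gene TraesCS2B01G444500 (553 to 207 TPM, -1.31). The homeologs called Rpr4901.2, TraesCS4B01G091800 and TraesCS4A01G224300, fell by 0.89 and 1.22, the latter not called by limma.

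Homeologs mostly changed together. Of 38 A and B pairs matched by their names in the photoperiod table, both copies were called in 19. All 19 changed in the same direction. In 2 pairs the A copy alone was called, in 2 the B copy alone, and in 15 neither. The copies differed in size, with a median difference of 0.50 between their log2 changes and 13 pairs that differed by at least 1. The widest gaps among these 38 were those of *TaSTK* (3.93 and -0.70), at low levels, and *GA20ox4* (0.45 and 5.05). *TaAG2*, also at low levels, and *FPF-like-1* followed. In several pairs the copy with the lower WT level rose by the larger fold, so that levels in *phyB*-null differed by a smaller fold. *PIF3*, *GA20ox4*, the F-box genes beside ribonuclease H2 and *BIM2* are such cases, and they were picked out after their values were seen. Other pairs moved apart. TraesCS3A01G013100 and TraesCS3B01G015800 were at 0.0408 and 0.183 TPM in WT and at 1.32 and 24.2 TPM in *phyB*-null. *TaAGL12-2* was split in another way, with *TaAGL12-B2* falling by 2.59 (3.22 to 0.490 TPM) and *TaAGL12-A2* not called (4.11 and 4.35 TPM). The homeologs *VIL-A2* and *VIL-B2*, for VIN3-like proteins, fell by 1.15 and 1.23. Pairing by a shared protein hit gave 235 further pairs, with both copies called in 177 and the same direction in 176 of these. Those descriptions come in part from lists of changed genes, so the share of pairs called has no meaning by itself. The exception was a pair described as N-methyl-L-tryptophan oxidase, in which TraesCS5A01G276300 rose by 1.81 (0.237 to 0.781 TPM) and TraesCS5B01G275600 fell by 2.54 (4.59 to 0.736 TPM). The *VRN1* copies, also paired by protein hit, differed by 4.55. *VRN-A1* changed by -1.52 (104 to 33.6 TPM) and *VRN-B1* by -6.06 (12.2 to 0.172 TPM). The *FUL2* copies changed by -6.51 on A and -2.19 on B, the latter not called. Reads that fit both homeologs equally well are not in the counts, so values of near-identical copies are uncertain to that extent.

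**Figure D5:**
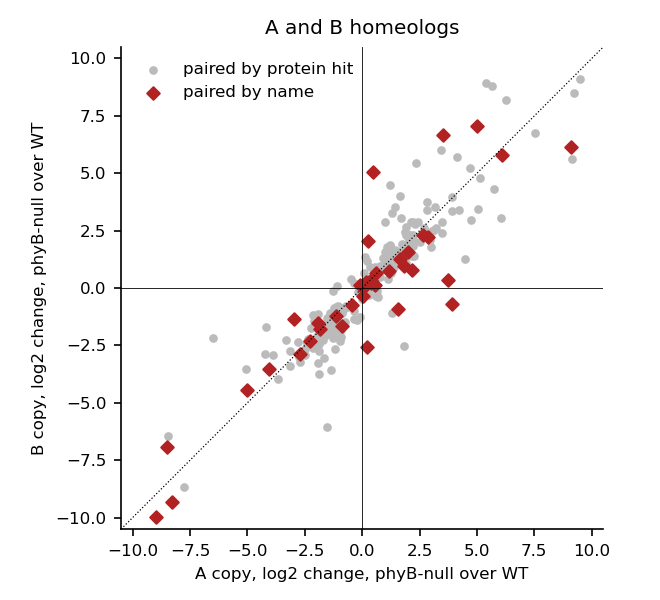
Log2 change, *phyB*-null over WT, of the A copy (x axis) and the B copy (y axis) of 38 homeolog pairs matched by name (red diamonds) and 235 matched by protein hit (grey circles), with the dotted line for equal changes. Most pairs lie near the line, and *GA20ox4* stands far above it at 0.45 and 5.05. Values of genes without a count in a genotype are fitted values, which depend on the prior count of the fit.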

How the data were processed

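RNA was measured by RNA-seq in leaves, and 8 libraries (4 WT, 4 *phyB*-null) were compared here. The authors trimmed 100 bp single reads, aligned them to the wheat RefSeq v1.0 assembly with GSNAP, and used HTSeq to count reads with a unique position in high and low confidence models. Strand setting and tool versions were not given in the sources used here. The authors deposited raw counts, without models under 3 counts in every library, and an unfiltered table of TPM. Columns of the authors' own comparisons were not used.

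Counts were tested with edgeR 4.0.16 in R 4.3.3 (TMM factors, quasi-likelihood test, no covariate), with Benjamini-Hochberg adjustment over all 72120 features and a threshold of 0.01. TPM served for levels only, as mean ± SD over 4 libraries. Per the study's methods, the replicates are biological replicates from individual plants. The libraries were run on lanes whose replicates are not named, so lanes were not fitted. Intervals and floors cover counting error only. On simulated data with 200 of 72120 features changed, 55% of the 2-fold and 99% of the 4-fold changes were found, beside 13 false calls. In the real comparison 8595 of 72120 features were called, a far larger share, so these rates need not hold for it. They were not split by transcript level, so they cannot tell how often changes of weakly transcribed models were found. Alternatives used DESeq2 1.42.0, limma 3.58.1 on log2(TPM + 1) and log2(TPM + 0.1), other scalings and filters, and each library left out.

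The models and lists were chosen with earlier results of these data known. Named genes are the 10 in each direction with the largest fold (at least 5 TPM in the higher genotype, no overlap, a description). The 10 in each direction with the largest TPM difference and a description were also named. So were individually named genes of the study's photoperiod table in the lists described, their homeologs, and the extreme called members of each family. Genes found by a keyword in other tables of the study were added as examples. Descriptions and families come from the study's tables, of which some are held only in part. The bHLH family may therefore be incomplete, and so may others such as bZIP.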

Additional observations from a re-analysis of the deposited data

Results flagged for a closer look

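In 306 groups of 4 libraries, 24 had a library far from the nearest other, relative to the range. It passed Dixon's 95% critical value, which chance gives in about 1 in 20 for normally distributed values. Where all other libraries of the group had no count, any read is flagged. This holds for *GA2ox6*, TraesCS2B01G396000 and TraesCS7B01G249700, so their flags carry no weight. WT replicate 4 was at 0.244 TPM for *GA20ox-B4*, 0.0461 TPM for *GA2ox6*, 0.0173 TPM for TraesCS2B01G396000, 0.417 TPM for *GA20ox2*, 4.05 TPM for the chalcone synthase gene TraesCS2B01G038700 and 6.71 TPM for the *SAUR*-like gene TraesCS2B01G220800, above the other WT libraries in each. It was also the highest for *GA20ox1*, at 30.4 TPM. WT replicate 1 was highest for *TaFLC-A1* (13.8 TPM), *TaFLC-B1* (28.7 TPM), *LHY* (1.22 TPM), *FPF-like-3* (2.24 TPM) and the T7H20-70 gene TraesCS1B01G290000 (1187 TPM), and it was at 0 TPM for *FT-A9* and for TraesCS5A01G001900. WT replicate 2 was highest for *FT-B10* (9.80 TPM) and the *SWEET3a* gene TraesCS1B01G147200 (15.8 TPM).

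In *phyB*-null, replicate 1 was lowest for *GIGANTEA-A* (26.6 TPM), *GIGANTEA-B* (17.9 TPM) and *TaFLC-B4* (6.44 TPM), and highest for *GA2ox-B11* (2.34 TPM) and the WRKY gene TraesCS7B01G249700 (0.0718 TPM, the others at 0). Replicate 4 was lowest for TraesCS2B01G212400 (1.64 TPM) and highest for *BZR1-like-A* (23.5 TPM) and *FT-B12* (7.68 TPM).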

How the results depend on the processing

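Called models numbered 7384 in the reported fit. With limma on log2(TPM + 1) there were 4829 (1982 higher, 2374 on A, 2399 on B, 1622 at 2-fold or more), and on log2(TPM + 0.1) there were 3915 (1593 higher, 2322 lower, 1912 on A, 1955 on B, 2658 at 2-fold or more). At a threshold of 0.05 there were 12820 (6331 higher, 6489 lower, 6391 on A, 6269 on B). DESeq2 called 10527, with 7361 of the 7384 among them. The cause of these differences was not tested. Leaving out 1 library gave 4573 to 7323 called models, 2351 to 3620 higher, 2207 to 3924 lower, 2239 to 3617 on A, 2274 to 3614 on B and 3000 to 4441 at 2-fold or more, and 108 to 140 models without a count in a genotype. With at least 10 counts required, 25 such models remained. The share of called models that were higher ran from 40.7% (limma on log2(TPM + 0.1)) to 51.7% (without *phyB*-null replicate 3), and was 44.1% with library size scaling, which moved the median change of all high confidence models by -0.0482. The A share difference ran from -0.125 to 0.254 percentage points. Of 175 called named genes 121 kept their call under every alternative and no change was reversed.

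The replicate numbers did not pair the libraries, as deviations of same-numbered libraries had correlations of -0.36 to -0.02. Between libraries of different numbers the correlations ran from -0.578 (WT replicate 4 and *phyB*-null replicate 1) to 0.553 (WT replicate 4 and *phyB*-null replicate 2). Such shared deviations were not fitted. With the replicate number as a block 4657 models were called (2280 higher, 2377 lower, 2260 on A, 2336 on B), of which 4573 were among the 7384.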
